A study of Mus musculus with 4 samples.

Results

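The 10 genes described here encode the main parts of major histocompatibility complex (MHC) antigen presentation, and were taken by gene symbol from the 56691 genes of the deposited RNA-seq table, in which each of the 10 symbols occurs once. They comprise the class I heavy chains H2-K1 and H2-D1 with their light chain B2m, the peptide transporter subunit Tap1 and the immunoproteasome subunits Psmb8 and Psmb9, and the class II genes H2-Aa, H2-Ab1, Cd74 and Ciita. RNA-seq was performed on 4 sarcomas of W/+ mice, which carry 1 mutant Trp53 allele made by CRISPR/Cas9 (labelled p53R282W/+ after the human residue, R279W in the mouse). Both groups share this genotype, and the comparison asks how the transcriptome of the sarcomas differs with arsenic trioxide (ATO) treatment. The ATO group holds 2 sarcomas (ATO 1 and ATO 2) of mice that drank water with 35 mg ATO per L from day 90 of life until death, and the control group holds 2 sarcomas (PBS 1 and PBS 2), labelled with PBS as treatment and described as untreated in the study. The tumors arose spontaneously, the labels give neither the type of each sarcoma nor the age at sampling, and sarcomas of this model include angiosarcomas, osteosarcomas and soft tissue sarcomas.

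MHC class I molecules are found on nearly all nucleated cells and show peptides of cytosolic proteins to CD8+ T cells. The proteasome cuts these proteins, and in its interferon-induced form, the immunoproteasome, the subunits Psmb8 and Psmb9 replace the standard subunits Psmb5 and Psmb6. The Tap1-Tap2 transporter carries the peptides into the endoplasmic reticulum, where they bind a heavy chain paired with B2m. MHC class II molecules, made of the alpha chain H2-Aa and the beta chain H2-Ab1, show peptides from endosomes to CD4+ T cells. They are largely restricted to dendritic cells, B cells and activated macrophages unless interferon gamma induces them elsewhere. Cd74, the invariant chain, escorts the class II chains to endosomes, and Ciita is the transcriptional coactivator of the class II genes.

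H2-K1, B2m and H2-Aa stand for 3 patterns of level over the sarcomas described below, and the 250 bases before their RefSeq transcription start (GRCm38.p6) are shown to compare their upstream sequence. Capitals mark 3 short motifs, searched on both strands: AANNGAAA, the core bound by interferon regulatory factors, TGACG, which lies in the X2 box of MHC promoters, and CCAAT, the core of the Y box (ATTGG on the other strand). The windows are chr17:34000348-34000597 on the minus strand for H2-K1, chr2:122147437-122147686 on the plus strand for B2m, and chr17:34287824-34288073 on the minus strand for H2-Aa.
H2-K1: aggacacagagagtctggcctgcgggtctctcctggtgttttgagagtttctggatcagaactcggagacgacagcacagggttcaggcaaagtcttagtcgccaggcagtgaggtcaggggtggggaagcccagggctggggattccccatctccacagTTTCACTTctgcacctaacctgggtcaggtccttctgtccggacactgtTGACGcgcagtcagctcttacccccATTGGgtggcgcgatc
B2m: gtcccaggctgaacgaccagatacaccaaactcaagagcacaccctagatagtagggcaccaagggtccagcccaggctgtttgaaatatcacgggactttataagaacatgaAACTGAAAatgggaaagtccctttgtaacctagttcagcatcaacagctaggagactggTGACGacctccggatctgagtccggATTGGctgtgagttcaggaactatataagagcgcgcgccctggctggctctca
H2-Aa: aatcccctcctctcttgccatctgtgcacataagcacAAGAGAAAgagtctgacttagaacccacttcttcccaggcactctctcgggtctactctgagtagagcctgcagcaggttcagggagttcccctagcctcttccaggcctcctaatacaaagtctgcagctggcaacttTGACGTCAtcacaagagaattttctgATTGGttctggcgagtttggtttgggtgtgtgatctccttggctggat
All 3 windows held each of the motifs, and in H2-Aa 2 overlapping copies of TGACG on opposite strands form 1 run of capitals. RefSeq windows were searched for 7 of the 10 genes, and H2-Ab1, Cd74 and Ciita were left out of this comparison. H2-D1 also held the 3 motifs, Tap1 and Psmb9 held TGACG and CCAAT but not AANNGAAA, and Psmb8 held none. The Tap1 and Psmb9 windows overlap on opposite strands, and their matches are the same sites. Over all 32851 promoter windows of this length, 21.3% held AANNGAAA, 17.8% TGACG and 33.8% CCAAT. These matches describe the sequence and do not show a bound site.

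The total counts ranged from 15259695 to 18134000 per sarcoma, and 3 counts, which a gene listed at 0 could hold by counting error alone, correspond to 0.165 to 0.197 CPM, the read count scaled to a fixed library size. FPKM also scales the read count to gene length, so FPKM is used below for levels, within and between genes, and CPM scaled by the TMM method for differences between sarcomas. The mitochondrial share of all counts was 14.7% in ATO 2 and 1.98% to 2.59% elsewhere, and the TMM factor of ATO 2 was 0.822 against 1.01 to 1.11. The sarcomas also differed widely in tissue genes. The mesenchymal genes Vim, Col1a1, Col1a2, Pdgfra and Pdgfrb were detected in all 4 sarcomas. Their summed FPKM was 3784 in PBS 1, 1284 in PBS 2, 3929 in ATO 1 and 801 in ATO 2. By TMM-scaled CPM, Vim and Pdgfrb were lower in both ATO than in both PBS sarcomas, an order that 20.2% of all genes tested had. The summed FPKM of 5 endothelial genes was 935 in PBS 2 and 74.2 to 151 in the others. That of 5 osteoblast genes was 465 in ATO 1 and 4.69 to 12.7 in the others. For 5 adipocyte genes it was 12.8 in PBS 1, 66.6 in PBS 2, 338 in ATO 1 and 1594 in ATO 2. For 5 skeletal muscle genes it was 4.94, 100, 11822 and 867 in the same order. The adipocyte and muscle sums were thus higher in both ATO than in both PBS sarcomas. The part of these differences in the results below was not tested. As tumors were sequenced in bulk, fewer cells of a type and less RNA per cell cannot be told apart.

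Both class I heavy chains were higher in both ATO sarcomas than in both PBS sarcomas, an order that 19.7% of all genes tested had. H2-K1 (ENSMUSG00000061232; GRCm38 chromosome 17, 33996017 to 34000347), a classical heavy chain, had an FPKM of 161 in PBS 1, 175 in PBS 2, 285 in ATO 1 and 346 in ATO 2. After TMM scaling, the mean was 450 ± 21.6 CPM (SD, n = 2) in PBS and 1040 ± 289 CPM (SD, n = 2) in ATO. This is a 2.31-fold difference, or 1.21 on the log2 scale (SE 0.56). Both ATO sarcomas thus lay above both PBS sarcomas, and the PBS sarcomas differed by only 1.07 times in CPM. H2-D1 (ENSMUSG00000073411; chromosome 17, 35262730 to 35267499), the other classical heavy chain, had an FPKM of 223 in PBS 1, 354 in PBS 2, 536 in ATO 1 and 559 in ATO 2. Its log2 fold change was 1.21 (SE 0.63), with 1571 ± 273 CPM (SD, n = 2) in ATO and 677 ± 211 CPM (SD, n = 2) in PBS. Again the groups did not overlap. Neither difference passed edgeR's quasi-likelihood test with Benjamini-Hochberg adjustment over 17188 genes (adjusted p = 0.618 for H2-K1 and 0.645 for H2-D1), and over the alternatives the adjusted p of H2-K1 ranged from 0.346 to 0.912 and that of H2-D1 from 0.368 to 0.947. With each sarcoma left out, the log2 fold change stayed between 0.90 and 1.45 for H2-K1 and between 0.93 and 1.57 for H2-D1. Of the 150-base stretches of their annotated transcripts, the read length of the study, 0% in H2-K1 and 1.35% in H2-D1 also occur in another gene (of 50-base stretches 9.63% and 12.8%), so that sharing of reads with other H2 genes leaves their counts somewhat uncertain.

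B2m (ENSMUSG00000060802; chromosome 2, 122147686 to 122153083), the light chain shared by class I molecules, did not follow the heavy chains. It was the most abundant of the 10 genes, with an FPKM of 1540 in PBS 1, 1012 in PBS 2, 1039 in ATO 1 and 1570 in ATO 2. The highest and the lowest level of the PBS group thus bracketed ATO 1, and the groups overlapped. ATO and PBS differed by 0.34 on the log2 scale of CPM (edgeR adjusted p = 0.911, SE 0.68), and by -0.17 when ATO 2 was left out. Within each sarcoma, a ratio that does not depend on scaling between libraries, the FPKM of B2m was 4.01 times that of H2-K1 plus H2-D1 in PBS 1, 1.91 times in PBS 2, 1.26 times in ATO 1 and 1.73 times in ATO 2. Both ATO sarcomas therefore had less B2m per heavy chain transcript than both PBS sarcomas, the log2 difference between the groups being -0.90. For a single ratio, 2 against 2 sarcomas cannot give a two-sided exact permutation p below 0.333, so no ratio was tested.

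**Figure D1:**
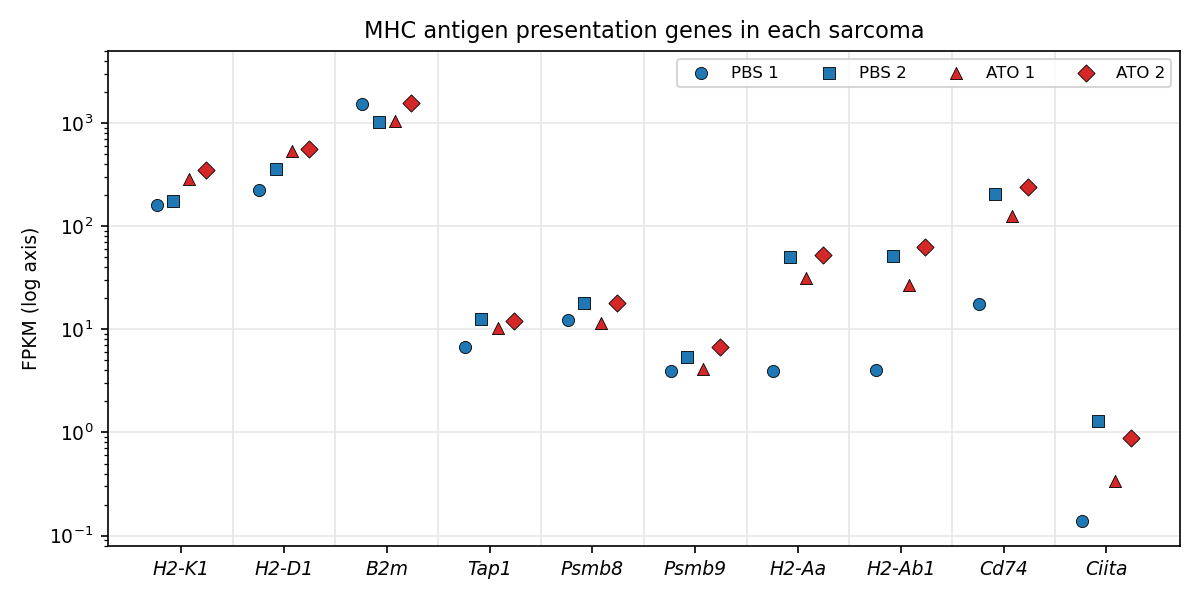
FPKM of the 10 genes in each sarcoma on a log axis, with PBS sarcomas as blue circles and squares and ATO sarcomas as red triangles and diamonds. H2-K1 and H2-D1 are higher in both ATO sarcomas than in both PBS sarcomas, while the class II genes are low in PBS 1 (H2-Aa at 3.90) and similar in PBS 2 (50.7) and ATO 2 (52.1).

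The genes that supply peptides to class I differed little between the groups. Tap1 (ENSMUSG00000037321; chromosome 17, 34187553 to 34197225) had an FPKM of 6.80 in PBS 1, 12.5 in PBS 2, 10.3 in ATO 1 and 12.0 in ATO 2. PBS 1 was the lowest and PBS 2 the highest, so that by FPKM the ATO sarcomas lay between the PBS sarcomas, whereas by TMM-scaled CPM ATO 2 (80.1) exceeded PBS 2 (62.1). For Tap1 the log2 fold change in ATO was 0.50 (edgeR adjusted p = 0.797, SE 0.47), and 0.13 without PBS 1. Psmb8 (ENSMUSG00000024338; chromosome 17, 34197721 to 34201454) had an FPKM of 12.4 in PBS 1, 18.0 in PBS 2, 11.6 in ATO 1 and 17.9 in ATO 2. Each group held 1 sarcoma near 12 and 1 near 18. The log2 fold change of Psmb8 was 0.27 (edgeR adjusted p = 0.90, SE 0.49), but -0.26 without ATO 2 and -0.042 with total counts in place of TMM. Psmb9 (ENSMUSG00000096727; chromosome 17, 34181987 to 34187764) had an FPKM of 3.94 in PBS 1, 5.35 in PBS 2, 4.14 in ATO 1 and 6.66 in ATO 2. It was lowest in PBS 1 and highest in ATO 2, and the groups overlapped. Between the groups it differed by 0.53 on the log2 scale (edgeR adjusted p = 0.809, SE 0.54), and by -0.029 without ATO 2. Psmb9 and Tap1 lie head to head and share 212 exon bases on opposite strands, and Psmb8 shares 498 of its 3381 exon bases with the antisense gene Gm20496. Whether reads were counted by strand is not stated in the sources used here, and without strand such reads cannot be told apart.

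The share of immunoproteasome to standard proteasome transcripts was compared within each sarcoma for the 3 catalytic pairs. The FPKM ratio of Psmb8 to Psmb5 was 0.202 in PBS 1, 0.174 in PBS 2, 0.131 in ATO 1 and 0.193 in ATO 2. For Psmb9 to Psmb6 it was 0.0588 in PBS 1, 0.0862 in PBS 2, 0.0871 in ATO 1 and 0.144 in ATO 2, which sets both ATO sarcomas just above both PBS sarcomas. The ratio of Psmb10, the last inducible subunit, to Psmb7 was 0.412 in PBS 1, 0.746 in PBS 2, 0.349 in ATO 1 and 1.01 in ATO 2. The groups overlapped for Psmb8 and Psmb10, and all 3 ratios were higher in ATO 2 than in ATO 1.

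The class II genes varied more between the 2 PBS sarcomas than between the groups. H2-Aa (ENSMUSG00000036594; chromosome 17, 34282744 to 34287823), the alpha chain, had an FPKM of 3.90 in PBS 1, 50.7 in PBS 2, 31.6 in ATO 1 and 52.1 in ATO 2. H2-Ab1 (ENSMUSG00000073421; chromosome 17, 34257689 to 34269419), the beta chain, had an FPKM of 3.99 in PBS 1, 51.2 in PBS 2, 26.6 in ATO 1 and 62.1 in ATO 2. Both chains were thus low in PBS 1 alone, and PBS 2 lay between the ATO sarcomas. Cd74 (ENSMUSG00000024610; chromosome 18, 60803848 to 60812652), the invariant chain, had the highest class II level, with an FPKM of 17.5 in PBS 1, 203 in PBS 2, 125 in ATO 1 and 237 in ATO 2. Ciita (ENSMUSG00000022504; chromosome 16, 10480059 to 10528418), the coactivator, had an FPKM of 0.14 in PBS 1, 1.28 in PBS 2, 0.34 in ATO 1 and 0.88 in ATO 2, from 24, 220, 59 and 128 reads. It too was lowest in PBS 1, but its highest level was in PBS 2.

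By TMM-normalized CPM, PBS 2 exceeded PBS 1 by 12.8 times for H2-Aa, 12.6 times for H2-Ab1, 11.4 times for Cd74 and 8.78 times for Ciita, whereas ATO 2 exceeded ATO 1 by 2.02 to 3.16 times. H2-Aa, H2-Ab1 and Cd74 were at least 4-fold lower in PBS 1 than in each other sarcoma, as were 2.92% of all genes tested, a threshold chosen after the values were seen. The log2 fold changes between the groups were 0.94 (SE 1.20) for H2-Aa, 1.03 (SE 1.24) for H2-Ab1, 1.05 (SE 1.20) for Cd74 and 0.13 (SE 1.21) for Ciita, each smaller than its standard error, with edgeR adjusted p-values of 0.833 to 0.984. These log2 fold changes depended on single sarcomas, and were lower without PBS 1 and also without ATO 2. Without PBS 1, the log2 fold change was 0.051 for H2-Aa, 0.14 for H2-Ab1, 0.17 for Cd74 and -0.72 for Ciita. Without PBS 2 it was 3.72, 3.80, 3.68 and 2.40. Leaving out ATO 2 gave 0.36 for H2-Aa, 0.096 for H2-Ab1, 0.33 for Cd74 and -0.91 for Ciita, and leaving out ATO 1 gave 1.35, 1.59, 1.53 and 0.72.

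**Figure D2:**
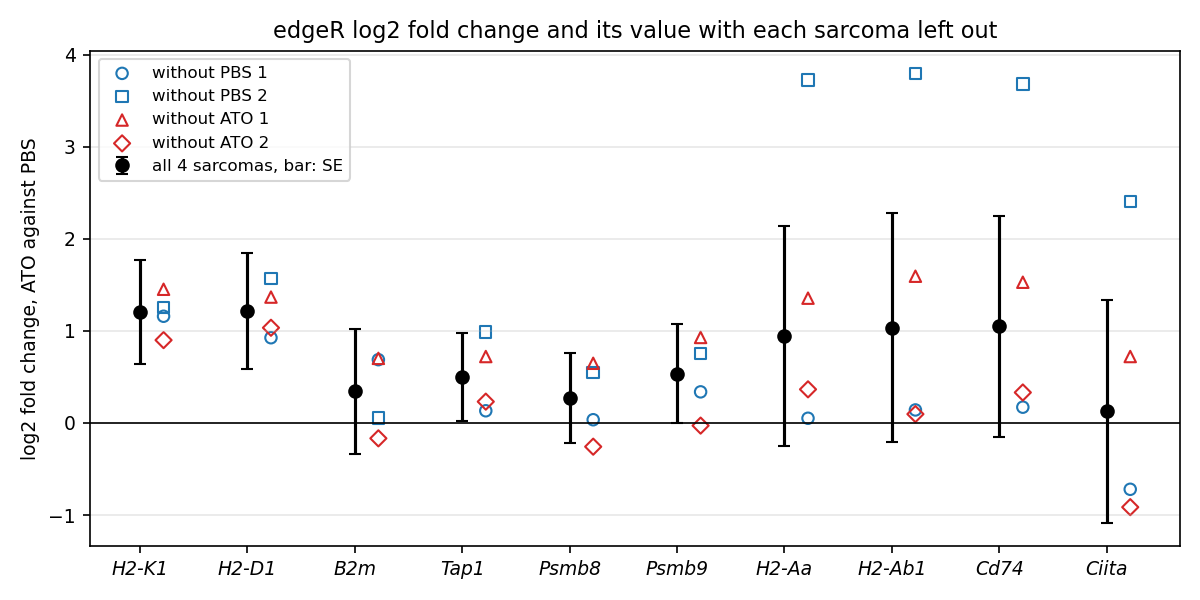
Log2 fold change of each gene in ATO against PBS by edgeR (black points, bars are the SE) and its value with each sarcoma left out (open symbols). For the class II genes H2-Aa, H2-Ab1 and Cd74 the values are 0.051 to 0.17 without PBS 1 and 0.096 to 0.36 without ATO 2. They lie between 3.68 and 3.80 without PBS 2, whereas for H2-K1 and H2-D1 all values stay between 0.90 and 1.57.

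The class II chains H2-Aa and H2-Ab1 and the invariant chain Cd74 kept a nearly fixed proportion to each other although the level of each differed over 10-fold. The FPKM ratio of H2-Aa to H2-Ab1 was 0.977 in PBS 1, 0.989 in PBS 2, 1.19 in ATO 1 and 0.838 in ATO 2. That of Cd74 to H2-Aa was 4.48 in PBS 1, 4.003 in PBS 2, 3.94 in ATO 1 and 4.55 in ATO 2. For these genes, PBS 1 thus had proportions within the range of the other 3 sarcomas.

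Of the 10 genes, 0 passed an adjusted p of 0.05 in edgeR or DESeq2, and 0 of the 9 that limma could test, which left out Ciita. Among all 17188 genes tested 0% passed in edgeR (0 genes), while DESeq2, fitted to 30859 genes with its own filter, called 754. At an unadjusted p under 0.05 in edgeR, 0 of the 10 genes stood against 8.51% of all genes (1463). Both ATO sarcomas lay above both PBS sarcomas by CPM for 2 of the 10 genes, H2-K1 and H2-D1, against 19.7% of all genes, and below for 0, against 20.2%. The fitted log2 fold change was positive for all 10, with a median of 0.74 against -0.016 over all genes. This median was 0.16 without PBS 1, 1.41 without PBS 2, 1.14 without ATO 1 and 0.16 without ATO 2.

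The other genes of the pathway, in 7 lists with 62 genes of which 59 were tested, gave 0 calls in edgeR. Fitted levels were higher in ATO for 43 and lower for 16, with a median log2 fold change of 0.42, which was -0.16 without ATO 2 and 0.76 without PBS 2. By TMM-scaled CPM, both ATO sarcomas lay above both PBS sarcomas for 15 of the 59, against 19.7% of all genes, and below for 4, against 20.2%. Among those above, the groups overlapped by FPKM for H2-Q4, H2-Q6, H2-DMa, H2-DMb1, Ifi30 and Ifngr1. By FPKM, Psmb6, Ifngr2 and Rfxank also lay below. In edgeR 1 gene, Gbp5, had an unadjusted p under 0.05. Among the 9 other class I and class I-like genes, 5 lay above by TMM-scaled CPM (H2-Q4, H2-Q6, H2-Q7, H2-M3 and Cd1d1) and 1 below (Mr1). Their median log2 fold change was 0.87, and was 0.47 without ATO 2 and 0.51 without PBS 2. Nlrc5, the coactivator of class I genes, had an FPKM of 2.84 in PBS 1, 4.69 in PBS 2, 6.57 in ATO 1 and 6.63 in ATO 2. Like the heavy chains it was higher in both ATO sarcomas, and the log2 fold change of 1.10 (edgeR adjusted p = 0.589, SE 0.44) stayed between 0.78 and 1.48 with each sarcoma left out. The other 10 peptide loading genes included Tap2 (log2 fold change 0.53, SE 0.49) and Tapbp (0.42, SE 0.63), whose groups overlapped, and the chaperones Canx (-0.59, SE 0.52) and Pdia3 (-1.04, SE 0.56), which were lower in both ATO sarcomas.

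Within the class II pathway, H2-Eb1, the other class II beta chain, followed H2-Ab1, with an FPKM of 6.80 in PBS 1, 66.7 in PBS 2, 47.0 in ATO 1 and 78.8 in ATO 2. It was the only 1 of the 13 further class II pathway genes tested that was at least 4-fold lower in PBS 1 than in each other sarcoma. H2-DMb2, H2-Oa and H2-Ob came close, at least 3.34-fold lower in PBS 1 by TMM-scaled CPM, from 2 to 10 reads there. H2-DMa and H2-DMb1, which exchange the class II peptide, were lowest in PBS 1 as well, with an FPKM of 2.21 and 8.07 there and of 4.77 to 5.23 and 12.6 to 17.0 in the others. Ctss and Ifi30, which process antigen in endosomes, were not low in PBS 1, with an FPKM of 300 and 148 against 224 to 1074 and 80.3 to 137 in the others. The genes that lie between presentation and its inducer were also measured. Ifng, which encodes interferon gamma, had at most 5 reads in any sarcoma. Cxcl9, a chemokine that interferon gamma induces, had an FPKM of 0.46 in PBS 1, 3.80 in PBS 2, 2.23 in ATO 1 and 14.4 in ATO 2, and was lowest in PBS 1. Of the 9 interferon gamma induced genes, 5 were lowest in PBS 1, while Gbp2, Gbp3, Cxcl10 and Ido1 were not. Of the same 9 genes, 4 (Gbp5, Igtp, Irgm1 and Iigp1) lay higher in both ATO sarcomas than in both PBS sarcomas and 0 lower, against 19.7% and 20.2% of all genes. Their median log2 fold change of 0.89 was 0.22 without ATO 2, 1.37 without PBS 2 and 1.45 without ATO 1. The median of the 9 interferon gamma pathway genes tested was 0.07, and ranged from -0.07 without PBS 1 to 0.35 without ATO 1. That of 5 costimulatory genes was 0.83, but -0.43 without ATO 2 and 0.40 without PBS 1. That of the standard proteasome subunits was 0.22, and 0.024 without PBS 2, 0.056 without ATO 1 and 0.11 without PBS 1.

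The markers of leukocytes, those that carry class II among them, differed between the sarcomas too. The summed FPKM of 5 B cell markers was 1.13 in PBS 1, 11.7 in PBS 2, 6.37 in ATO 1 and 7.22 in ATO 2, and that of 7 T and NK cell markers was 1.13, 9.20, 13.1 and 10.6. That of 8 dendritic cell markers was 3.63 in PBS 1, 23.9 in PBS 2, 8.09 in ATO 1 and 17.0 in ATO 2. All tested markers of these 3 lists (5, 6 and 6 genes) were lowest in PBS 1 by TMM-scaled CPM, although by FPKM Flt3 was lower in ATO 2 (0.21) than in PBS 1 (0.28), and in PBS 1 Pax5, Ncr1 and Xcr1 had 0 reads. The 8 macrophage markers did not share this order, with a summed FPKM of 1098 in PBS 1, 460 in PBS 2, 960 in ATO 1 and 1211 in ATO 2, and only Fcgr1 among them was lowest in PBS 1. Ptprc, expressed by all leukocytes, had an FPKM of 4.12 in PBS 1, 21.01 in PBS 2, 6.03 in ATO 1 and 10.6 in ATO 2. The part of these cells in the class II levels was not tested.

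**Figure D3:**
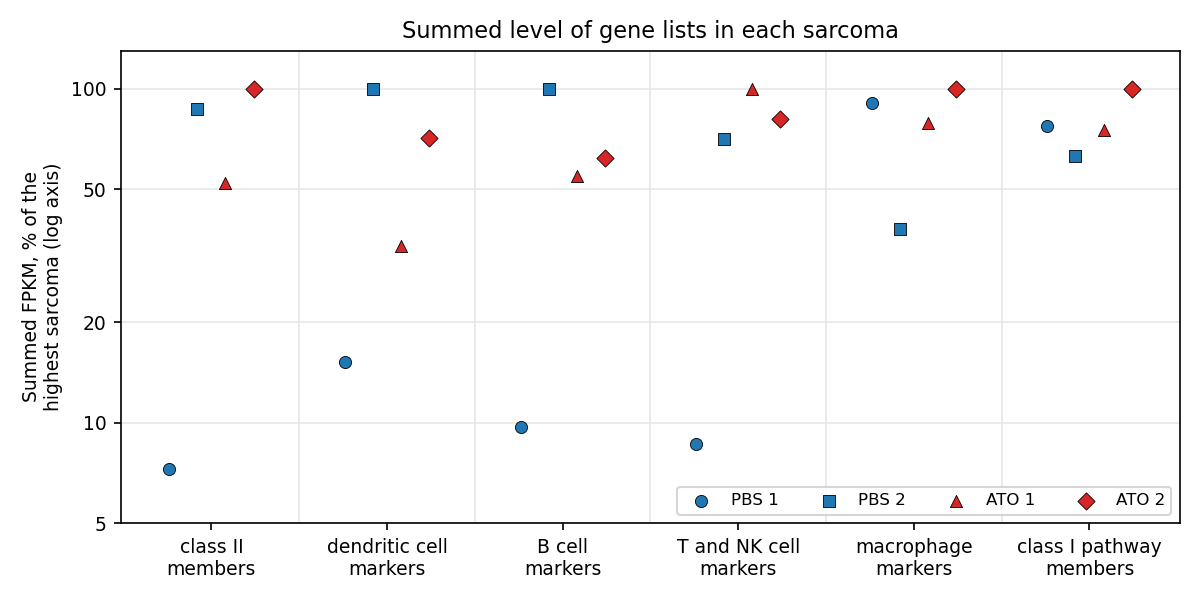
Summed FPKM of the class II genes, of 4 lists of cell type markers and of the 6 class I pathway genes in each sarcoma, as percent of the sarcoma with the highest sum, on a log axis. PBS 1 reaches 7.25% for class II, 15.2% for dendritic, 9.69% for B and 8.66% for T and NK cell markers. It reaches 90.6% for macrophage markers and 77.5% for class I, a sum that is mostly B2m. For the other 5 of 6 class I genes PBS 1 is lowest by TMM-scaled CPM. By FPKM, however, Psmb8 is lower in ATO 1 (11.6) than in PBS 1 (12.4).

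The order of the sarcomas in class II level relative to a leukocyte marker depended on the marker used as the reference. These ratios of bulk levels are not levels per cell. Relative to Ptprc, the FPKM of H2-Aa was 0.947 in PBS 1, 2.41 in PBS 2, 5.25 in ATO 1 and 4.91 in ATO 2, so that both ATO sarcomas lay above both PBS sarcomas. H2-Ab1 (0.968, 2.44, 4.40 and 5.86) and Cd74 (4.25, 9.65, 20.7 and 22.4) had the same order of groups, while Ciita overlapped. By FPKM alone the groups overlapped for all these genes, and Ptprc itself was higher in PBS 2 (21.01) than in ATO 1 (6.03) or ATO 2 (10.6). The share of all genes with such an order relative to Ptprc was not computed. Relative to Csf1r, the receptor that marks macrophages, H2-Aa was 0.0512 in PBS 1, 1.52 in PBS 2, 0.416 in ATO 1 and 0.844 in ATO 2. On this scale PBS 2 was the highest and the groups overlapped, as for the other 3 class II genes. PBS 1 was the lowest on either scale for all 4 genes.

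**Figure D4:**
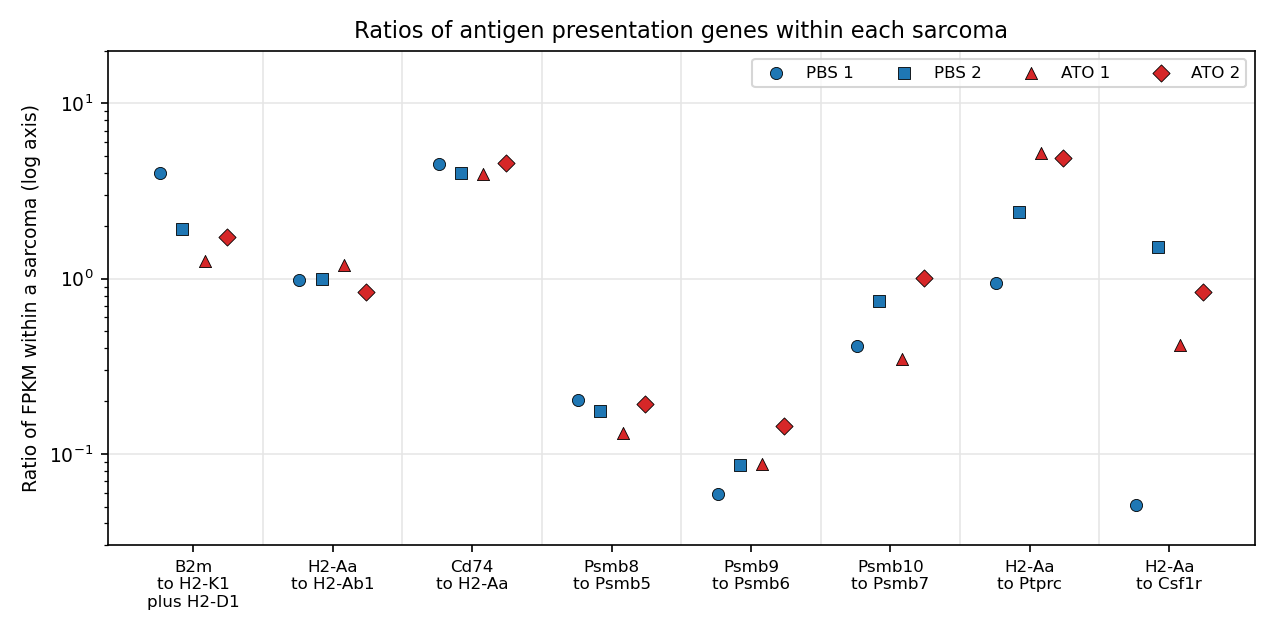
Ratios of FPKM within each sarcoma on a log axis, with PBS sarcomas in blue and ATO sarcomas in red. The ratio of B2m to the heavy chains is lower in both ATO sarcomas (1.26 and 1.73) than in both PBS sarcomas (1.91 and 4.01), H2-Aa, H2-Ab1 and Cd74 keep similar proportions to each other, and H2-Aa is lowest in PBS 1 relative to both Ptprc and Csf1r.

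The genes with the most similar profile over the 4 sarcomas were ranked by the root mean square difference in centred log2 CPM, among the 13729 genes tested whose FPKM averaged 1 or more. For the mean profile of the class II genes these were Tnni1 (0.15), H2-Eb1 (0.187), Lbp (0.198), Clec7a (0.264) and Plbd1 (0.294). For that of the other 6 genes they were Rfk (0.033), Scarb2 (0.037), Naglu (0.038), Mrs2 (0.057) and Asb13 (0.060). With 4 sarcomas such likeness is a description of these libraries.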

How the data were processed

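RNA-seq of 4 sarcomas, 2 per group, was grouped by the sample labels. The authors removed adapters (Cutadapt 1.9.1), aligned reads to GRCm38 (HISAT2 2.0.1) and made read counts per gene with HTSeq, which they deposited without normalization. The authors also deposited FPKM, which count, exonic size and total count gave to within rounding in 100% of genes. Strand setting and multi-mapped reads are not given in the sources used here. Only 1435 of 52073 shared genes have the GENCODE M21 (GRCm38) position in the table, so positions were taken from GENCODE by identifier. The labels and the study name different RNA and library kits, and the labels give a growth protocol for cultured cells. Same-numbered sarcomas are not stated to be paired.

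The test of the counts used edgeR 4.0.16 under R 4.3.3 (low counts removed by filterByExpr, TMM factors from 0.822 to 1.11, quasi-likelihood F-test, Benjamini-Hochberg adjustment, threshold 0.05). The test was checked on simulated counts, but calls of most changed genes were required only at a smaller spread than in these data. DESeq2 1.42.0, limma 3.58.1 on log2(FPKM + 1) or log2(FPKM + 0.1), other scalings and filters, a replicate block and leaving out each sarcoma were alternatives. Profiles used log2(CPM + 1). Figures were drawn with matplotlib 3.10.9. Genes named are the 10 members, listed counterparts and markers, and the 5 nearest profiles; a few further list genes, such as Canx, Pdia3 and those given by non-overlap, were named after their values were seen. The members and lists were chosen with earlier results of these data known. Whether the sarcomas of a group came from separate mice is not stated, so p-values measure only the spread between these samples.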

Additional observations from a re-analysis of the deposited data

How the results depend on the processing

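Of all genes, 0 passed in edgeR with DESeq2's size factors, total counts, a mean FPKM of at least 1, the replicate block, each sarcoma left out, no mitochondrial genes, and in limma, but 754 in DESeq2 (595 higher, 159 lower) and 541 without a filter (454 higher, 87 lower). The cause was not tested. Of the 10 members 0 passed under any of the 13 alternatives that could test them. Where a sarcoma was left out, the lone sarcoma of its group was assumed to vary like the other group.

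The median log2 fold change of the 4 class II genes was 0.99 and ranged from 0.096 without PBS 1 to 3.70 without PBS 2, and that of the 6 class I pathway genes was 0.52 and ranged from 0.10 without ATO 2 to 0.87 without PBS 2. With total counts in place of TMM, which moved the median of all genes from -0.016 to -0.28, these medians were 0.65 and 0.21. Directions turned for B2m (-0.17 to 0.70 with each sarcoma left out), Psmb9 (-0.029 to 0.93), Psmb8 (-0.26 to 0.65, -0.042 with total counts, and in limma -0.050 at pseudocount 1 and -0.053 at 0.1) and Ciita (-0.91 to 2.40, and -0.22 with total counts). Each lowest value came without ATO 2, and Ciita was also negative without PBS 1 (-0.72). Ciita could not be fitted where a mean FPKM of 1 was required, in edgeR or limma, as its level lay below. The other 6 members kept their direction in all alternatives run. Ratios of counts gave nearly the same differences as ratios of FPKM. This was fixed in advance for ratios of single genes, because gene length cancels, so it is not a check of the ratios.

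The labels number the sarcomas within each group, and the deviations of same-numbered sarcomas had a correlation of 5.04e-05 over genes. With 2 sarcomas per group, this value cannot show whether same-numbered sarcomas were paired. With the replicate block 0 genes passed, 1165 had an unadjusted p under 0.05, and the class II median was 1.79 and the class I median 0.51.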
